A study of Mus musculus with 16 samples.

Results

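Described here are 10 genes named for their part in epithelial-mesenchymal transition: the transcription factors Snai1, Snai2, Twist1, Zeb1 and Zeb2, the cadherins Cdh1, Cdh2, Cdh3 and Cdh11, and fibronectin, Fn1. They were chosen by symbol, as every probe whose accession maps to one of them, and no measured value entered the choice. They are 10 of 20145 genes with a named probe, carried by 13 probes, and all 10 were among the 14575 genes tested. Ribosome-bound RNA of mouse glomeruli was measured on 16 one-colour microarrays in groups of 4.

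All mice were C57BL/6N and carried the RiboTag allele with Nphs1-Cre (Nphs1-RiboTag). RiboTag puts an HA epitope on a ribosomal protein wherever Cre acts, and the nephrin promoter Nphs1 confines Cre to cells that express nephrin, which in the glomerulus are podocytes. The podocyte groups are HA-precipitated polysomes: day 4 and day 7 after LMB2 come from Nphs1-RiboTag-NEP25 mice given this toxin once by tail vein, at 0.625 ng per g body weight, and normal podocytes come from Nphs1-RiboTag mice without the toxin. Glomerular RNA is unprecipitated polysome RNA of normal Nphs1-RiboTag mice. In NEP25 mice podocytes express human CD25, the target of the immunotoxin LMB2. Age, and whether an array holds 1 animal or several, are not given in the sources used here, so each p-value measures the spread between these samples, which may be technical.

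In epithelial-mesenchymal transition, Snail, Twist and Zeb factors repress genes of epithelial adhesion, above all Cdh1, the E-cadherin gene, while Cdh2 (N-cadherin) and Fn1 are usual readouts of the mesenchymal state. Podocytes are not typical epithelial cells: they arise from nephron progenitors through a mesenchymal-to-epithelial step, keep vimentin, and use slit diaphragms in place of mature adherens junctions. Cdh3 (P-cadherin) has been described at the slit diaphragm. Whether injured podocytes take on this programme is a question that the comparison of toxin-treated with normal podocytes bears on.

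The 11 podocyte markers checked were all called higher in podocyte than in glomerular RNA (median log2 difference 2.30), and all 10 endothelial, 10 mesangial and 10 proximal tubule markers were called lower. Also lower were 4 of 4 tested fibroblast, 8 of 9 distal nephron and 7 of 10 leukocyte markers, with the rest not called. Of 6 tested parietal epithelial markers, 4 were lower, 1 was higher and 1 was not called. Over all genes tested, 51.6% were called higher and 27.5% lower in this comparison. A level is the log2 of the processed intensity over the array's 75th percentile. Calls rest on limma, at a Benjamini-Hochberg adjusted p under 0.05 over all genes tested. The 8 normal arrays lay on slide 1 with scan 1 and the 8 LMB2 arrays on slide 2 with scan 2. The toxin, the NEP25 allele and the slide therefore cannot be told apart in either comparison with normal podocytes, whereas podocyte against glomerular RNA and day 7 against day 4 each lie on 1 slide. On slide 2 all day 7 arrays were in row 1 and all day 4 arrays in row 2, so row and time cannot be told apart there, while both normal groups had arrays in each row. No spot was saturated. All but Twist1 were well above background on all 16 arrays. Twist1 was above it on 2, 3 and 2 of 4 arrays in normal, day 4 and day 7 podocytes and on 4 of 4 glomerular arrays, and it passed the filter on dim probes only through the glomerular group. In bulk RNA, fewer cells of a type and less RNA per cell cannot be told apart.

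**Figure D1:**
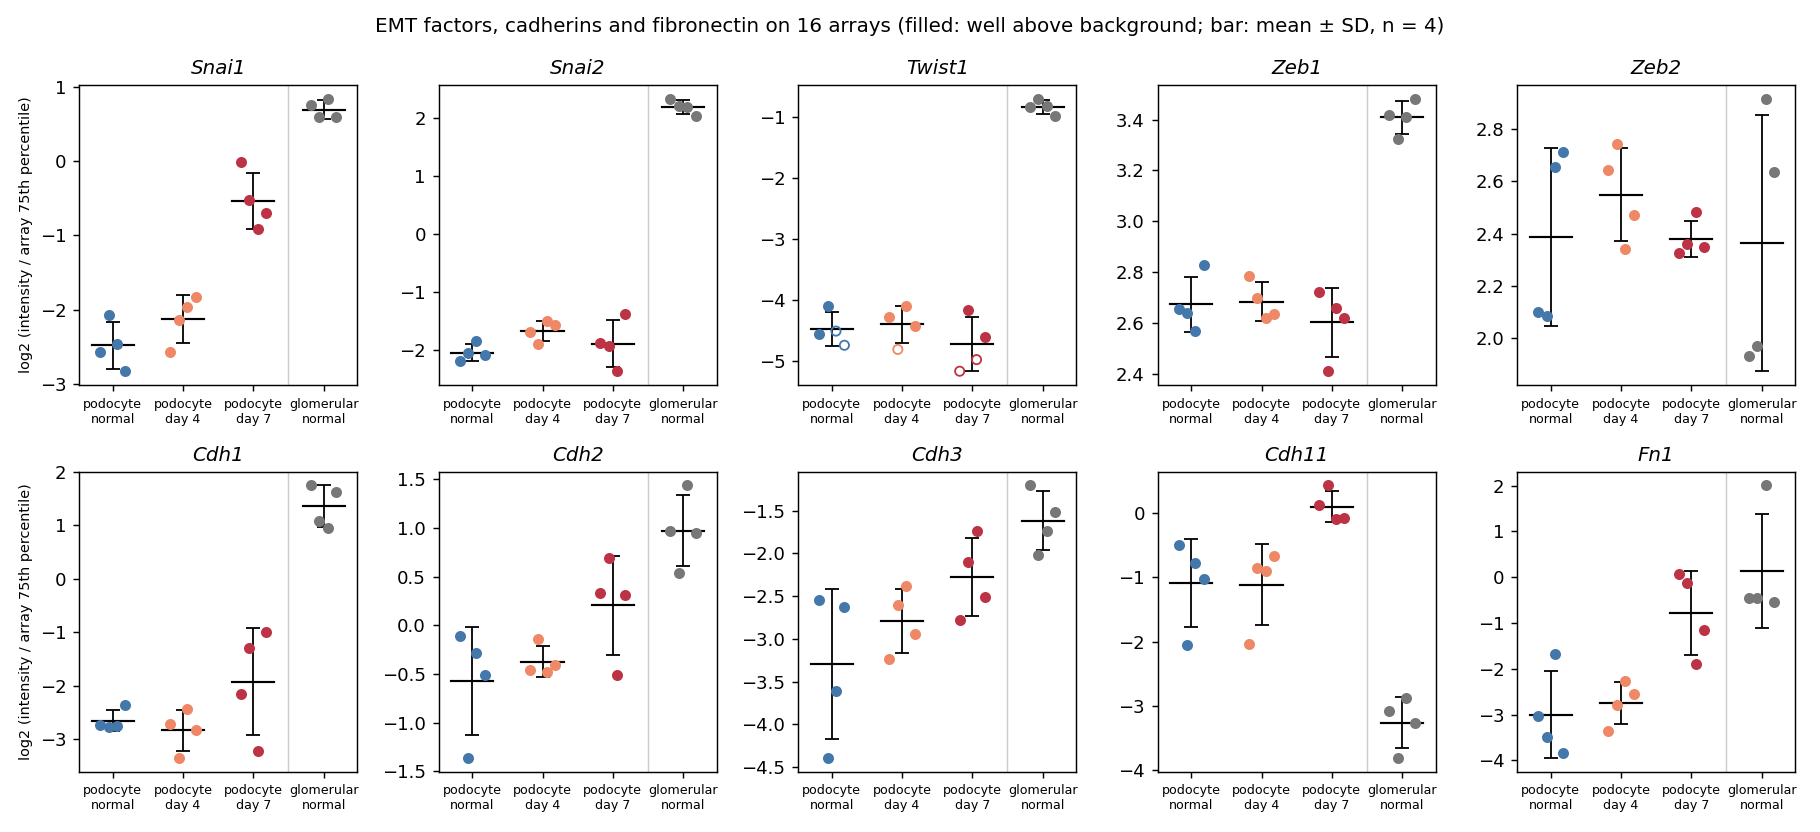
Levels of the 10 genes on each of the 16 arrays (y axis, log2 of intensity over the array's 75th percentile, with its own range in each panel), for normal, day 4 and day 7 podocytes and, right of the grey line, normal glomerular RNA. Bars are the mean ± SD of 4 arrays and open points are arrays where the probe was not well above background. Day 7 arrays stand above both other podocyte groups for Snai1 and Cdh11, and Zeb1 and Zeb2 lie within 1 log2 unit over the 3 podocyte groups.

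Podocyte RNA was first set against glomerular RNA of normal mice, to place the 10 transcripts. Of the 9 genes well above background on all arrays, 7 were lower in podocyte RNA, Cdh11 was higher, and Zeb2 was not called. Their median difference was -1.68 on the log2 scale, against 0.38 for all genes tested. Twist1, which entered the test through the glomerular group alone, is left out of these counts and described by its values. Calls were common in this comparison: 79.1% of all genes tested were called, 51.6% higher and 27.5% lower, and in 73% the arrays of the groups did not overlap, as they did not for 8 of the 9 genes.

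Of the transcription factors, Snai1 (Snail, a zinc-finger repressor of Cdh1) had levels of -2.57, -2.07, -2.46 and -2.83 on the normal podocyte arrays, against 0.76, 0.59, 0.85 and 0.59 on the glomerular arrays. Its log2 difference was -3.18 ± 0.20 (SE, adjusted p = 5.5e-09), 9.06-fold lower in podocytes. Snai2 (Slug, its close relative) showed the widest gap of the 10, with -2.20, -2.06, -1.85 and -2.10 in podocytes and 2.34, 2.21, 2.20 and 2.04 in glomeruli, a difference of -4.25 ± 0.17 (adjusted p = 1.9e-10). Both Snail genes thus lay far lower on every podocyte array than on any glomerular array.

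Twist1, a basic helix-loop-helix factor, had -4.55, -4.09, -4.51 and -4.74 in podocytes, with 2 of these 4 arrays well above background, and -0.83, -0.70, -0.82 and -0.98 in glomeruli. Its measured difference was -3.64 ± 0.21 (adjusted p = 1.9e-09), which moved to -1.73 with normexp background correction. The Zeb genes, zinc-finger and homeodomain repressors, behaved otherwise. Zeb1 was only 1.67-fold lower in podocytes, at 2.66, 2.64, 2.57 and 2.83 against 3.42, 3.32, 3.41 and 3.48 in glomeruli (difference -0.74 ± 0.09, adjusted p = 2.1e-06), without overlap. The Zeb1 difference was -0.38 after centring every array on its median. Zeb2 levels were 2.10, 2.08, 2.65 and 2.71 in podocytes and 1.93, 1.97, 2.92 and 2.64 in glomeruli, fully overlapping (difference 0.02, 95% interval -0.43 to 0.48, adjusted p = 0.92). On its second probe, the Zeb2 difference was -0.01.

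RefSeq promoter windows (GRCm38.p6, 250 bases before to 50 after the start) were at hand for Snai1, Twist1 and Zeb2. The Snai1 and Twist1 windows are shown because both genes were low in podocyte RNA, while Snai1 alone of the pair was called higher on day 7. Both are on the + strand, and capitals mark CACCTG, which reads CAGGTG, the E-box bound by Snail-family factors, on the other strand.
Snai1, chr2:167537945-167538244: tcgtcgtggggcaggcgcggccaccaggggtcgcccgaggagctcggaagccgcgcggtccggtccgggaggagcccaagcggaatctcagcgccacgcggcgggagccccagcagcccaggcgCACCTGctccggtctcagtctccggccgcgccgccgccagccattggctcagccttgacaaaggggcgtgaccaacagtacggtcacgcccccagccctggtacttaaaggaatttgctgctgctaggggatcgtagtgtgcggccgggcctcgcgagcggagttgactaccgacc
Twist1, chr12:33957421-33957720: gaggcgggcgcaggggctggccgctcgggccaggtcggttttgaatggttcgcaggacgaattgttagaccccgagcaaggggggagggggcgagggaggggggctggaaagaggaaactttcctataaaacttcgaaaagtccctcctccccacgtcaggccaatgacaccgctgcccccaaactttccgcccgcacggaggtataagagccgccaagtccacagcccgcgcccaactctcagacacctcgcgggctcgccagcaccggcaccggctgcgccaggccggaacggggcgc

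Both strands of each window were searched for the letters of 5 motifs: the Snail-type E-box CAGGTG, AP-1 TGANTCA, TEAD GGAATG, Egr GCGNGGGCG and the NF-kappaB motif. The Snai1 window held the E-box letters, at bases -126 to -121 from the start, and none of the others. The Twist1 window held none of the 5. Of the 4 Zeb2 start sites, site 4 (chr2:45110228-45110527, - strand) held AP-1 letters at -189 to -183 and at -132 to -126 and TEAD letters at -157 to -152, and the other sites held none. Over all 32544 promoter windows of this length, 20.3% held the E-box letters, 7.79% AP-1, 14.6% TEAD, 5.6% Egr and 0.415% NF-kappaB. These matches describe the letters and were not tested as binding sites.

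Among the cadherins, Cdh1, the cadherin of epithelial adherens junctions, had -2.73, -2.77, -2.76 and -2.36 on the normal podocyte arrays and 1.75, 1.09, 0.95 and 1.63 on the glomerular arrays. It was 16.1-fold lower in podocytes (difference -4.01 ± 0.38, adjusted p = 2.3e-07). Cdh2, the N-cadherin gene, had -0.11, -1.36, -0.29 and -0.51 in podocytes, against 0.97, 0.54, 1.44 and 0.95 in glomeruli, a difference of -1.54 ± 0.28 (adjusted p = 1.6e-04). The second Cdh2 probe gave -1.57. Cdh3 was lower as well, with -2.55, -4.39, -3.61 and -2.63 in podocytes and -1.21, -2.02, -1.74 and -1.52 in glomeruli (difference -1.68 ± 0.36, adjusted p = 6.8e-04). The Cdh3 difference was -0.71 with normexp background correction and -0.60 with quantile normalization after it.

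Cdh11, a type II cadherin of mesenchymal cells and osteoblasts, ran the other way. Its levels were -0.50, -2.05, -0.78 and -1.02 in podocytes and -3.08, -3.81, -2.87 and -3.27 in glomeruli, 4.50-fold higher in podocytes (difference 2.17 ± 0.34, adjusted p = 3.8e-05). The second Cdh11 probe gave 1.36, and with normexp background correction the difference was 1.23. Cdh11 is thus the member of the 10 whose ribosome-bound RNA was higher in the precipitated polysomes.

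Fn1, the matrix glycoprotein that binds integrins and collagen, had -3.03, -3.48, -1.67 and -3.84 in podocytes, against -0.46, -0.45, 2.01 and -0.53 in glomeruli. The difference was -3.15 ± 0.61 (adjusted p = 2.6e-04). In each group replicate 3 was the highest array, and without replicate 3 of both groups the difference was -2.97. With normexp background correction it was -1.89.

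Toxin-treated podocytes were then set against normal podocytes, at each time, to ask which of the 10 moved with injury. On day 4 none of the 10 was called by limma, and 1, Snai2, had an unadjusted p under 0.05. On day 7, 5 of the 10 were called higher: Fn1, Snai1, Cdh11, Cdh3 and Cdh2. None was called lower on day 7, and none had an unadjusted p under 0.05 in that direction. The background was 32.2% of all genes called on day 4 (12.3% higher, 19.9% lower) and 58.3% on day 7 (21.6% higher, 36.7% lower). The median of the 10 was 0.18 on day 4 and 0.75 on day 7, against -0.12 and -0.14 for all genes tested. The arrays did not overlap with normal podocytes for 0 of the 10 genes on day 4 and for 2, Snai1 and Cdh11, on day 7, against 33.1% and 50.6% of all genes. The day 4 and day 7 comparisons share the 4 normal arrays. The day 7 count was 3 without day 7 replicate 2, 3 without normal replicate 2 and 3 in a fit of only the 8 arrays compared, with Cdh2 and Cdh3 among the calls that were lost.

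**Figure D2:**
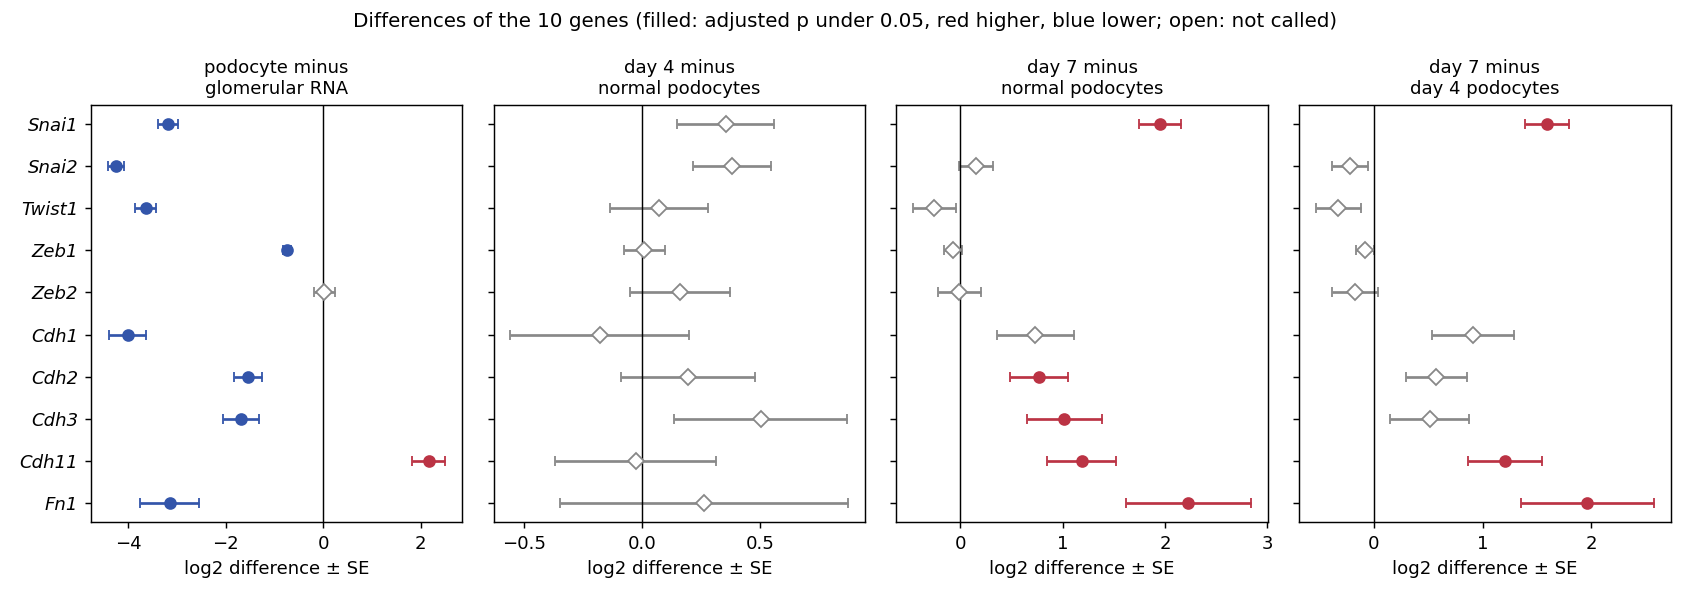
Log2 difference ± SE of the 10 genes (rows) in the 4 comparisons (panels, each with its own x axis); filled points have an adjusted p under 0.05. On day 7 against normal podocytes, Snai1, Cdh2, Cdh3, Cdh11 and Fn1 are filled and lie right of 0, and no gene is filled on day 4.

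Snai1 levels were -2.58, -2.14, -1.96 and -1.83 on the day 4 arrays and -0.01, -0.52, -0.91 and -0.70 on the day 7 arrays, with normal podocytes between -2.83 and -2.07. Every day 7 array lay above every day 4 and normal array, and below every glomerular array. Snai1 rose 3.86-fold on day 7 (difference 1.95 ± 0.20, adjusted p = 2.1e-06), while its day 4 difference was 0.36 ± 0.20 (adjusted p = 0.20). Under every alternative run, the day 7 call of Snai1 held, with differences from 1.18 upward.

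No such shift was seen in the other 4 transcription factors. Snai2 had -1.70, -1.91, -1.51 and -1.58 on day 4 and -1.89, -1.93, -2.38 and -1.39 on day 7, overlapping with the normal range of -2.20 to -1.85 at both times. Its differences were 0.38 ± 0.17 on day 4 (adjusted p = 0.093, 95% interval 0.03 to 0.74) and 0.16 on day 7 (adjusted p = 0.44, interval -0.20 to 0.51). In a fit of only the 8 arrays of normal and day 4 podocytes, the day 4 difference of Snai2 was called. Twist1 had -4.28, -4.81, -4.09 and -4.42 on day 4 and -5.17, -4.16, -4.98 and -4.60 on day 7. Several of these arrays were not well above background, and the differences were 0.07 on day 4 (interval -0.37 to 0.52) and -0.25 on day 7 (interval -0.69 to 0.19). Other scalings called Twist1 lower on day 7, at -0.60 with quantile normalization and at -0.59 after centring every array on its median.

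The Zeb genes stayed within narrow ranges. Zeb1 had 2.79, 2.70, 2.62 and 2.64 on day 4 and 2.72, 2.41, 2.66 and 2.62 on day 7, with differences from normal podocytes of 0.01 (interval -0.17 to 0.20) and -0.07 (interval -0.25 to 0.12). After that centring, which moved the median of all genes on day 7 to -0.48, Zeb1 was called lower at -0.41. Zeb2 had 2.64, 2.74, 2.34 and 2.47 on day 4 and 2.32, 2.36, 2.48 and 2.35 on day 7. Its differences were 0.16 (interval -0.29 to 0.61) and -0.01 (interval -0.46 to 0.44), and neither of its probes was called at either time.

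For Cdh1, the gene these factors repress, the day 4 levels were -2.71, -3.35, -2.44 and -2.84, and the day 7 levels were -2.16, -1.30, -3.22 and -1.005. On day 7, 3 arrays lay above every normal array and replicate 3 lay below them all, so the groups overlapped. The difference on day 7 was 0.73 ± 0.38 (adjusted p = 0.11, interval -0.07 to 1.54), and on day 4 it was -0.18 (interval -0.99 to 0.63). Without day 7 replicate 3, Cdh1 was called higher on day 7, at 1.17. It was also called with normexp background correction, at 0.55. No alternative called Cdh1 lower at either time.

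Cdh2 had -0.46, -0.14, -0.48 and -0.40 on day 4 and 0.33, 0.69, -0.51 and 0.31 on day 7, with normal podocytes between -1.36 and -0.11. Of the 4 day 7 arrays, 3 lay above all normal arrays. Cdh2 rose 1.71-fold on day 7 (difference 0.77 ± 0.28, adjusted p = 0.029), its second probe gave 0.95 (adjusted p = 0.0069), and on day 4 the difference was 0.20 (adjusted p = 0.64). The day 7 call was lost without normal replicate 2, at 0.51, without day 7 replicate 2, at 0.61, and also without day 7 replicate 1 or 4.

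Cdh3 had -3.24, -2.61, -2.39 and -2.95 on day 4 and -2.78, -2.11, -1.74 and -2.51 on day 7, with normal arrays spread from -4.39 to -2.55. It rose 2.02-fold on day 7 (difference 1.02 ± 0.36, adjusted p = 0.027). The groups overlapped, and the call was lost under 11 of 21 alternatives: among them with normexp background correction, at 0.32, or at 0.10 with quantile normalization after it, with quantile normalization, at 0.79, and without normal replicate 2, at 0.65, normal replicate 3, day 7 replicate 2 or day 7 replicate 3. On day 4 the difference was 0.50 ± 0.36 (adjusted p = 0.32).

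Cdh11 had -2.04, -0.86, -0.89 and -0.66 on day 4 and 0.12, 0.43, -0.09 and -0.07 on day 7. All 4 day 7 arrays lay above the highest normal array, at -0.50, whereas the day 4 arrays overlapped with the normal arrays. Cdh11 rose 2.27-fold on day 7 (difference 1.19 ± 0.34, adjusted p = 0.0080), and its second probe gave 1.01 (adjusted p = 0.0027). The day 4 difference was -0.02 (interval -0.75 to 0.70).

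Fn1 had -3.36, -2.78, -2.28 and -2.54 on day 4 and 0.07, -0.12, -1.89 and -1.15 on day 7. Again 3 day 7 arrays lay above every normal array, and day 7 replicate 3, at -1.89, lay below normal replicate 3, at -1.67. The rise on day 7 was 4.69-fold (difference 2.23 ± 0.61, adjusted p = 0.0059), and the day 4 difference was 0.26 (interval -1.04 to 1.57). Without replicate 3 of both normal groups the day 7 difference was 2.67, and with normexp background correction it was 1.23. Fn1 remained called on day 7 under every alternative.

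The test of the difference between the times is day 7 against day 4, on 1 slide but in different rows of it. Of the 10 genes, 3 were called higher on day 7 than on day 4 and none lower, against 34% of all genes called, 13.2% higher and 20.7% lower. None was at an unadjusted p under 0.05 in the lower direction. These 3 were Snai1 (difference 1.59 ± 0.20, adjusted p = 6.9e-05), Fn1 (1.97 ± 0.61, adjusted p = 0.023) and Cdh11 (1.21 ± 0.34, adjusted p = 0.014), and for each the 4 day 7 arrays lay above all 4 day 4 arrays. In 34.2% of all genes these groups did not overlap. The Fn1 call was lost without day 7 replicate 1 (1.69) or 2 (1.75) and without day 4 replicate 1 (1.76) or 2 (1.95). For Snai1, the day 7 mean was -0.53 ± 0.38 and the day 4 mean -2.13 ± 0.32 (SD, n = 4 each). Differences of Cdh1 (0.91, adjusted p = 0.076), Cdh2 (0.58, adjusted p = 0.13) and Cdh3 (0.51, adjusted p = 0.30) did not pass. Those of Snai2, Twist1, Zeb1 and Zeb2 lay between -0.33 and -0.08 and were not called. Without day 7 replicate 4, Snai2 was called lower on day 7 than on day 4, at -0.39 (adjusted p = 0.046).

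In order of level, Snai1, Cdh1, Cdh2, Cdh3 and Fn1 were highest in glomerular RNA, then day 7 podocytes. The steps below day 7 were not called for Cdh1, Cdh2 and Cdh3 between the 2 LMB2 times, nor for any of these genes between day 4 and normal podocytes, and glomerular RNA was not tested against day 7 podocytes. Snai2, Twist1 and Zeb1 were also highest in glomerular RNA, and their 3 podocyte groups were not called apart. For Zeb2 no step was called. Cdh11 alone had its highest mean in day 7 podocytes (0.10 ± 0.24, SD, n = 4) and its lowest in glomerular RNA (-3.26 ± 0.40, SD, n = 4), with day 4 and normal podocytes between them and not called apart.

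Genes of related function were taken from lists chosen with earlier results of these data known, and are described by counts and medians. Of 22 tested mesenchymal programme genes (24 listed), 14 were called higher on day 7 and none lower, with none lower at an unadjusted p under 0.05 (median 1.39, against -0.14 for all genes, of which 21.6% were called higher and 36.7% lower). Tagln, the smooth muscle actin-binding protein transgelin, rose by 6.01 on the log2 scale (adjusted p = 3.9e-10), with means of 9.86 on day 7 and 3.86 in normal podocytes. S100a4 (calcium binding, 3.09), Col1a1 (type I collagen, 3.02) and Des (desmin filaments, 3.02) followed. On day 4 the calls were 4 higher and 1 lower (median 0.15, against 12.3% higher and 19.9% lower over all genes). They were Tagln at 1.61, the receptor kinase Axl at 0.91, Col1a2 at 0.61 and Fap, a fibroblast surface protease, which was at least 5.09-fold higher on day 4 and at least 2.42-fold higher on day 7. The metalloproteinase gene Mmp14 fell by 0.90 on day 4.

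Against normal podocytes, 13 of 28 tested epithelial programme genes (31 listed) were higher and 3 lower on day 7, with a median of 0.62, beside 21.6% and 36.7% of all genes. Cgn, the tight junction protein cingulin, was higher by 3.99 on day 4 and by 4.69 on day 7. Krt18, a simple-epithelium keratin, rose by 2.13 and the protease Prss8 by 1.42 on day 7. Ovol1, a zinc-finger factor of epithelial identity, was at least 4.70-fold higher on day 7, and Grhl1, a Grainyhead factor, fell by 1.42. Called on day 7 but well above background on no array of either group were 2 of the 13, Dsg2 and Elf3, singled out after their values were seen. On day 4, 4 were higher and 2 lower, with a median of -0.09, beside 12.3% and 19.9% of all genes. Of the lower ones, the keratin gene Krt7 fell by 1.17 and Grhl1 by 0.40. Dsg2, 1 of the 4, was well above background on no day 4 or normal podocyte array.

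**Figure D3:**
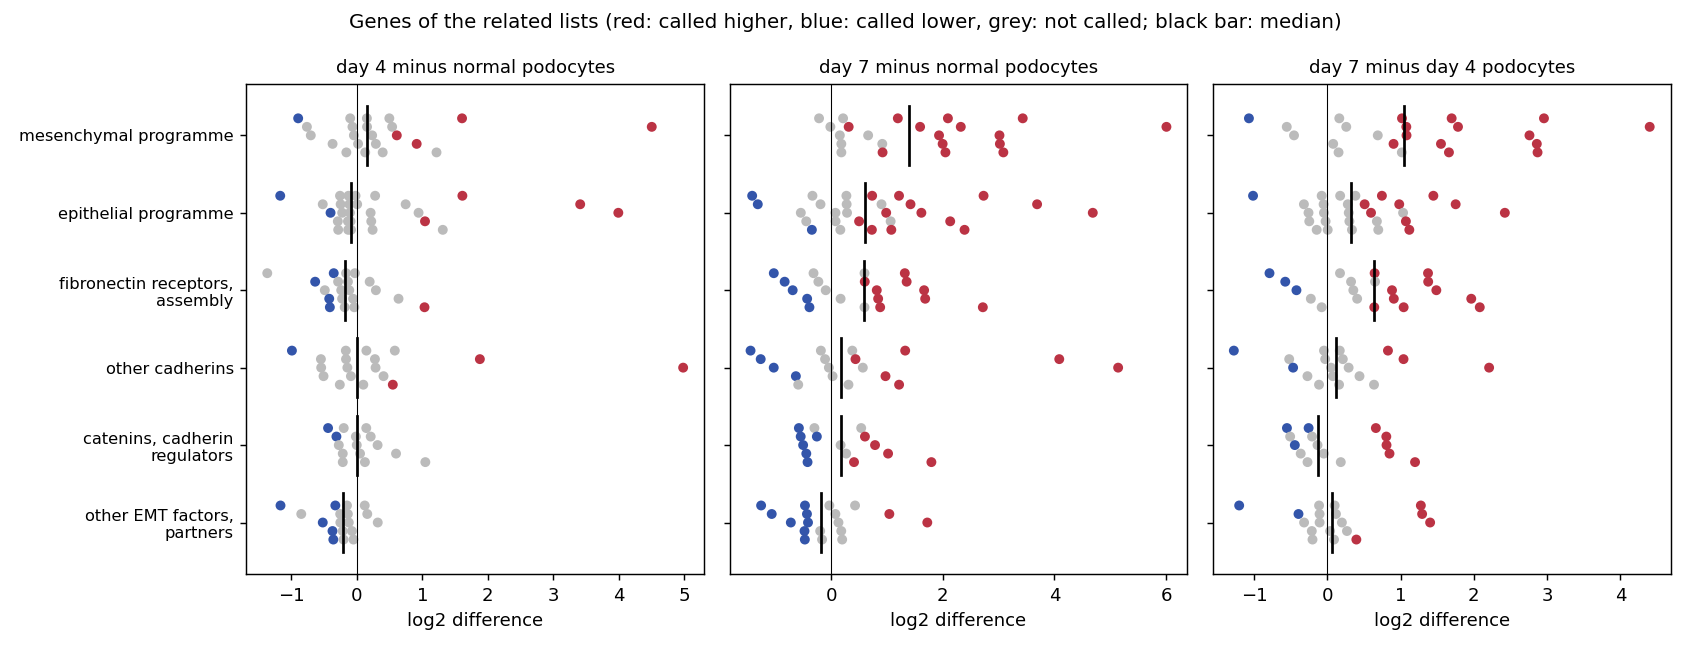
Log2 difference of each tested gene of the related lists (points) in 3 comparisons, each LMB2 time against normal podocytes and then one LMB2 time against the other; red is called higher, blue lower, grey not called, and the black bar is the list's median. Mesenchymal programme genes have their median at 1.39 on day 7 and 0.15 on day 4 against normal podocytes. For genes below background in a group, the point is the measured difference and not a bound.

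Of 20 fibronectin receptors and assembly genes, 9 were higher and 5 lower on day 7 (median 0.60), beside 21.6% and 36.7% of all genes. On day 4 the counts were 1 higher and 4 lower, beside 12.3% and 19.9% of all genes. Itga5, which pairs with Itgb1 as the main fibronectin receptor, rose by 2.72 (means -0.55 on day 7 and -3.27 in normal podocytes, adjusted p = 3.2e-06), and Itgb6 by 1.68, the adaptor Fblim1 by 1.67 and Itga9 by 1.35. On day 4, Itgb6 was higher by 1.03, while Itga8 fell by 0.64, the proteoglycan Sdc2 by 0.42 and the adaptor Tns3 by 0.41.

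Of 18 tested other cadherins (26 listed), 6 were higher and 4 lower on day 7 (median 0.17). The 10 called of 18 are close to the 58.3% called over all genes. By direction they differ, since 21.6% of all genes were higher and 36.7% lower. Cdh22 was at least 16.1-fold higher on day 4 and at least 18.03-fold higher on day 7, since it was well above background on no normal podocyte array. Cdh17, an intestinal cadherin, was at least 4.20-fold higher on day 7. Cdh22 and Cdh17 passed the filter on dim probes only through LMB2 groups, where they were high. Both are among the genes counted as higher on day 7, and Cdh22 also on day 4. Their direction was thus set by the filter, and their calls are not taken as support. Celsr1, a planar polarity cadherin, was higher by 1.33 and Cdh6 by 0.97, while Celsr2 fell by 1.26 and Cdh9 by 1.03. Cdh15 was at least 1.71-fold lower on day 7. On day 4, 3 were higher and 1, Celsr2, lower, by 0.99, beside 12.3% higher and 19.9% lower over all genes.

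Of 15 tested catenins and cadherin regulators (18 listed), 5 were higher and 6 lower on day 7 (median 0.17), beside 21.6% and 36.7% of all genes. Nectin1 stood at 1.80, Nectin2 at 0.79 and Vcl (vinculin) at 0.61, and Ctnnb1, the beta-catenin gene, at -0.58. On day 4, 2 were lower, Nectin3 at -0.44 and Ctnna1 at -0.31, and none higher (1 at an unadjusted p under 0.05), beside 19.9% and 12.3% of all genes. Of 18 tested other transition factors and partners (24 listed), 2 were higher and 8 lower on day 7, and their median of -0.18 and their 10 calls of 18 are close to the -0.14 and the 58.3% of all genes. On day 4, 5 were lower and 0 higher (6 and 0 at an unadjusted p under 0.05), beside 19.9% and 12.3% of all genes. Sox4 rose by 1.04, while the forkhead factor Foxc2 fell by 1.25, Tbx3 by 1.06 and Tcf3, an E-protein partner of Twist1, by 0.72. The other factor called higher, Twist2, was well above background on 1 day 7 array and on no normal podocyte array, and is named after its values were seen.

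Between the 2 LMB2 times, 13 mesenchymal programme genes were higher and 1 lower on day 7 than on day 4 (median 1.05, against -0.07 for all genes, of which 13.2% were higher and 20.7% lower), with Tagln at 4.40 and Fap lower. Epithelial programme genes had 9 higher and 1 lower (median 0.32), and 1 of these called genes was well above background on no array of either group. Fibronectin receptors and assembly genes had 10 higher and 3 lower (median 0.64), Itga5 among them at 2.08 and the platelet and endothelial integrin gene Itgb3 at 1.97. Other cadherins had 3 higher and 2 lower, catenins and cadherin regulators 5 and 3, and other transition factors 4 and 2, with Sox4 at 1.29 and Foxc2 at -1.20.

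In podocyte against glomerular RNA of normal mice, 51.6% of all genes tested were called higher and 27.5% lower, beside which the list counts stand. Of the mesenchymal programme genes, 4 were higher and 16 lower (median -2.10, against 0.38 for all genes), with S100a4 at -4.86 and Acta2, smooth muscle actin, at -3.49. Of the epithelial programme genes 7 were higher and 19 lower (median -1.96), with the plakophilin gene Pkp2 at 2.61 and the protease St14 at -3.79. Other cadherins had 4 higher and 7 lower, and Cdh5, the endothelial cadherin, stood at -4.09. Catenins and cadherin regulators had 4 higher and 8 lower, other transition factors 9 and 6, with Foxc2 at 2.97, and fibronectin receptors and assembly genes 10 and 9. Some genes counted as lower were well above background on no normal podocyte array. These were Dsg2, Elf3, Ocln and Ovol1 (epithelial), Col5a2, Fap and Mmp3 (mesenchymal), Cdh13, Ctnna3 and Twist2. Further genes counted as lower were so on only some of these arrays.

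Cell type marker lists are given beside these results, and their part in them was not tested. Over all genes, 12.3% were called higher and 19.9% lower on day 4, and 21.6% and 36.7% on day 7. For day 7 against day 4 these shares were 13.2% and 20.7%. The counts of every marker list below stand beside them. On day 7, 6 of 6 tested parietal epithelial markers were higher (median 1.87), and these cells line Bowman's capsule. Their summed intensity was 22.0% to 50.1% of the glomerular mean on day 7, 12.3% to 19.7% on day 4 and 11.6% to 16.8% in normal podocytes. Krt8 and Krt18 are also among the epithelial programme genes above. Of the 8 listed parietal markers, Krt19 and Pax2 were not tested, and on normal podocyte arrays Krt19 was well above background on none. Day 7 replicate 3 had the lowest mean level of this list, 0.82 over normal podocytes against 1.96 to 2.23 on the other day 7 arrays, and it was also the lowest day 7 array for Snai1, Cdh1, Cdh2, Cdh11 and Fn1. For Cdh3 it was the highest.

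Of 10 mesangial and smooth muscle markers, 2 were higher and none lower on day 7, with 1 lower at an unadjusted p under 0.05 (median 0.28). Their summed intensity was 9.90% to 13.7% of the glomerular mean on day 7, 6.84% to 9.35% on day 4 and 8.24% to 12.9% in normal podocytes. Among 4 tested fibroblast markers, Col1a1 alone was higher, and it is in the mesenchymal list too. The sum of the 4 was 20.7% to 30.4% on day 7, 11.95% to 16.5% on day 4 and 10.7% to 18.5% in normal podocytes. Lum and Dpt were well above background on no day 7, normal podocyte or glomerular array, so they do not bear on this sum. Of the 10 endothelial markers, 2 were higher and 2 lower on day 7, with sums of 5.49% to 8.22%, 3.86% to 6.404% on day 4 and 5.48% to 10.3% in normal podocytes. On day 4, 3 endothelial markers were lower and none higher (median -0.61), and 2 mesangial markers were lower and none higher. The 2 of 10 mesangial markers lower on day 4 are near the 19.9% of all genes called lower. The 2 of 10 higher on day 7 in either list are near the 21.6% of all genes called higher. In the direct test of day 7 against day 4, endothelial markers had 4 higher and 1 lower (median 0.70), mesangial markers 3 higher and none lower (median 0.70) and parietal markers 4 of 6 higher (median 1.41), beside the Snai1, Cdh11 and Fn1 calls of that test. Podocyte markers were lower on day 7 in 9 of 11 (median -1.04) and on day 4 in 4 of 11, with 1 higher.

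**Figure D4:**
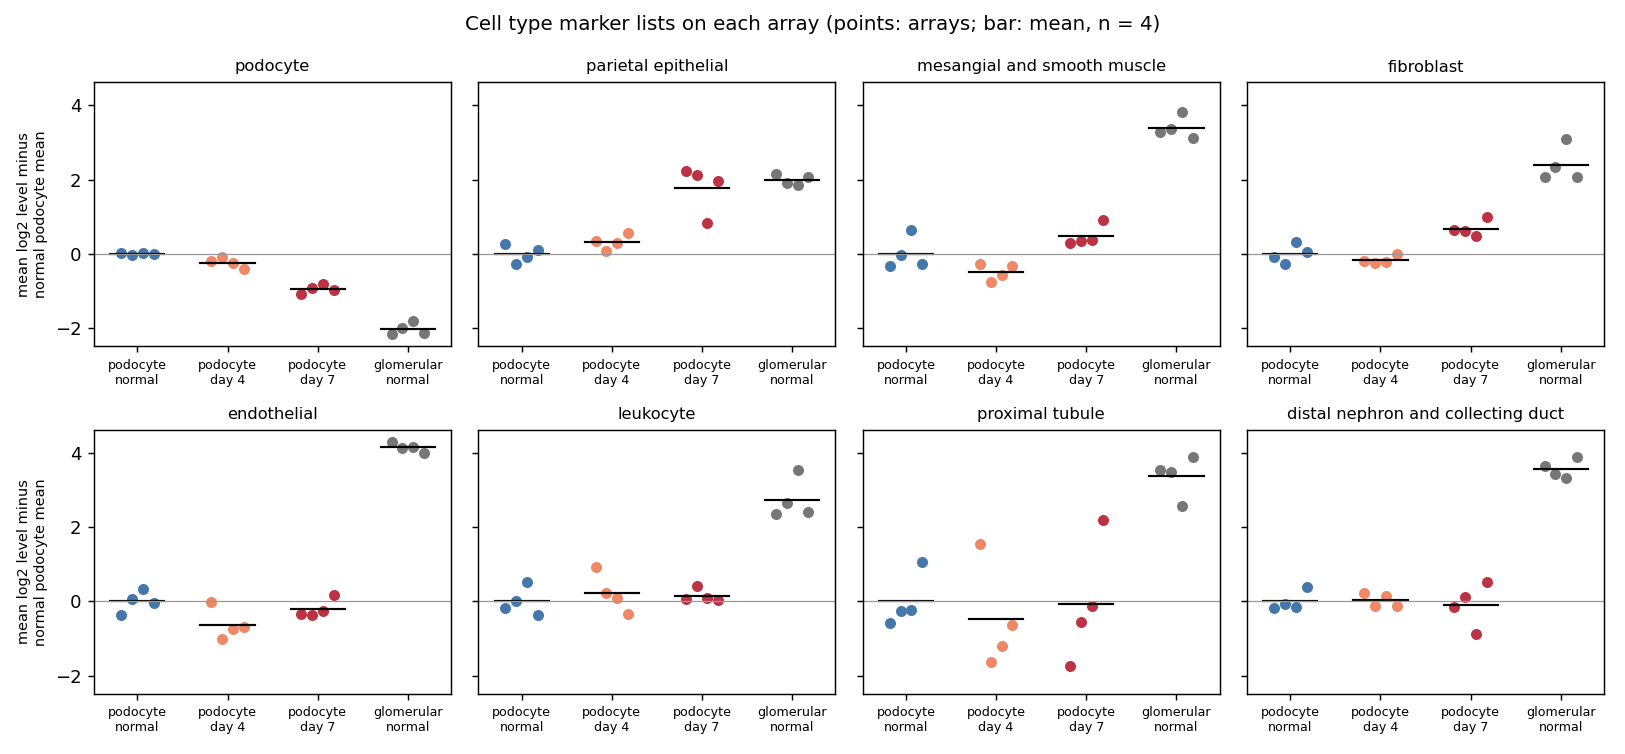
Mean log2 level of each marker list on each array, minus its mean over normal podocytes (y axis), for normal, day 4 and day 7 podocytes and normal glomerular RNA; bars are means of 4 arrays. The parietal list lies between 0.82 and 2.23 on day 7 arrays, and the mesangial list between 0.30 and 0.92.

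In the proximal tubule list, no marker was called on day 4 or day 7, and none had an unadjusted p under 0.05, but 3 arrays stood more than 1 log2 unit over the normal podocyte mean: day 7 replicate 4 at 2.20, day 4 replicate 1 at 1.55 and normal podocyte replicate 4 at 1.07. Without these 3 arrays the day 7 differences from normal podocytes were 1.89 for Snai1, 1.26 for Cdh11 and 2.08 for Fn1, all still called, and that of Cdh2 was 0.76, no longer called. Against day 4, Cdh11 at 0.96 and Fn1 at 1.88 were no longer called without them, which left Snai1 as the 1 gene called.

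In the distal nephron list, none of 9 tested markers was called on day 4 and 1 was lower on day 7. Its summed intensity was 3.63% to 14.3% of the glomerular mean on day 7, 4.79% to 6.81% on day 4 and 4.94% to 8.16% in normal podocytes. Day 7 replicate 3 was the lowest and replicate 4 the highest of the day 7 arrays, as they were for Cdh1, and the part of these transcripts in the Cdh1 levels was not tested. Of 10 leukocyte markers, 2 were higher on day 4, and 1 was higher and 1 lower on day 7, beside the shares of all genes given above. Ptprc, the pan-leukocyte marker, was well above background on no day 4 array, and Lyz2 and Adgre1 on no day 7 array. Of the 10, 6 were well above background on all 4 day 4 arrays, and 6 on all 4 day 7 arrays. The summed intensity of the leukocyte list was 71.2% to 79.8% of the glomerular mean on day 4. It was 42.8% to 70.7% on day 7 and 53.6% to 76.3% in normal podocytes. Most of this sum in normal podocytes came from Itgam, Csf1r and Cd3e, with means of 4.31, 2.82 and 0.95. These 3 were not called between podocyte and glomerular RNA. The other 7 were called lower in podocyte RNA, with normal podocyte means of -1.82 or less, so the sum does not measure leukocyte RNA as a whole.

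For likeness over the 16 arrays, the 3 tested genes with the highest Pearson r to each member are given as a description, since the arrays share groups and slides. Snai1 was most like Ecm1, Clic4 and Bmp2 (r = 0.985, 0.984 and 0.981), and Cdh1 most like Umod, Blnk and Emx1 (r = 0.995, 0.995 and 0.994). Umod is the uromodulin gene of the thick ascending limb and is one of the distal nephron markers. Fn1 was most like Slc16a3, Sox4 and Neurl2 (r = 0.941, 0.937 and 0.928) and Cdh2 most like Sox4, Vcam1 and Cnn3 (r = 0.942, 0.939 and 0.937), so the factor gene Sox4 is named for both. Cdh11 was most like Pcdh19, a protocadherin, Abracl and Tmbim1 (r = 0.974, 0.971 and 0.968).

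Snai2 followed Mfng, Ccdc160 and Phf11a most closely (r = 0.993, 0.991 and 0.989), and Twist1 followed Edil3, Ptpn18 and Cd34 (r = 0.986, 0.985 and 0.984). Cd34 is a surface protein of endothelial and progenitor cells. Zeb1 was nearest to Mapk12, Plpp1 and Unc45b (r = 0.978, 0.966 and 0.965). Cdh3 was nearest to the ribosomal protein genes Rps29, Rpl23a and Rplp0 (r = 0.915, 0.910 and 0.881), and Zeb2, which differed least between the groups, had the lowest values, with Casp14, Rnf224 and Nr3c2 (r = 0.785, 0.731 and 0.729).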

How the data were processed

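Each sample is 1 Agilent 1-colour array of Cy3-labelled cRNA, read with Feature Extraction 11.5.1.1, per the file headers. The deposited processed intensity of each spot is background-subtracted by that program, per the file headers, with no scaling across arrays. Log2 values in the authors' value table are each an exact shift of 1 array's log2 processed intensity, over 39349 probes compared; its column medians run from -3.17 to -2.51, and how the shift was chosen is not given in the sources used here. Its columns for replicates 1 to 3 of both normal groups match another replicate of the same group, renumbered the same way in each, so no group changes.

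Control spots and 112 to 178 outlier spots per array, of 59305 spots, were left out, and spots of a probe were averaged. Spots well above background made up 49.3% to 57.5% per array, and the number of arrays limits the precision. Accessions named 26582 of 55681 probes through the RefSeq gene table, each with 1 symbol, and 29099 had none. Tests used log2 of processed intensity, less the 75th percentile of that array. A probe was kept if some group had it well above background on all 4 arrays, which left 19060 after 58 that were missing on some array were set aside, and a gene was its kept probe with the highest mean. Limma 3.58.1 in R 4.3.3 (lmFit, eBayes) was fitted to all 16 arrays in 4 groups, with 12 residual degrees of freedom, and was tested on simulated data. Files were read with Python 3.11.15. For a gene measured above background throughout 1 group and nowhere in the other, the fold is a bound against the higher of the dim probe's value and the lowest signal well above background on each array.

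Same-numbered podocyte and glomerular arrays of normal mice deviated together (correlations 0.423, 0.455, 0.464 and 0.505, each the best match), so the numbers pair them; they also lie side by side on the slide, and these cannot be told apart. For the LMB2 groups the numbers did not pair the arrays throughout. Day 7 replicates 3 and 4 best matched the same number in normal podocytes (correlations 0.055 and 0.486), and no other LMB2 array best matched its own number. The 10 genes, the lists and the tests were chosen with earlier results of these data known. Named are all 10 genes; of each list the called genes with the largest absolute differences, up to 4 per comparison, well above background on all arrays of both groups, plus genes with a bound; and the 3 most alike genes of each member, clone and predicted names left out. Alternatives were other background corrections, scalings, filters, probe rules, samples in the fit, the replicate block, the authors' log2 table and leaving out arrays.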

Additional observations from a re-analysis of the deposited data

Results flagged for a closer look

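Among the arrays, 3 values stood apart from the others of their group by Dixon's gap test at 95%, among 40 groups of 4 arrays tested, where chance marks about 1 in 20. Cdh1 on normal podocyte replicate 4 had a level of -2.36, above -2.77 to -2.73 on the other 3 arrays, and this array is also 1 of the 3 high in proximal tubule markers. Cdh11 on day 4 replicate 1 had a level of -2.04, below -0.89 to -0.66 on the others, and this array is another of the 3. Fn1 on glomerular replicate 3 had a level of 2.01, above -0.53 to -0.45 on the others.

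Between the times, 3 genes differed by the direct test of day 7 against day 4: Snai1 by 1.593 (adjusted p = 6.9e-05), Cdh11 by 1.21 (adjusted p = 0.014) and Fn1 by 1.966 (adjusted p = 0.023). Each was higher on 4 of 4 day 7 arrays than on every day 4 array.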

How the results depend on the processing

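Of 836 alternative values of the 10 genes over the 4 comparisons, 798 kept their side of the threshold, 28 lost a call and 10 gained 1. No called value changed sign. Among the 798, 52 values that were uncalled in both fits changed sign. All podocyte against glomerular calls other than that of Twist1, and Snai1, Cdh11 and Fn1 on day 7 against normal podocytes, held under every alternative. Twist1 was called lower in the 21 alternatives that tested it in podocyte against glomerular RNA, beside 22 for Snai1. It was not tested where a probe had to be above background on every array. Twist1 passed the filter on dim probes only through the glomerular group, where it was high, so its call is not taken as support. Slide or scan as a block was not run, since it could not be fitted for LMB2 against normal podocytes and is constant within the other comparisons. Leaving out 1 array at a time, the count of genes called was 9 to 9 for podocyte against glomerular RNA, with Twist1 among them. It was 0 to 0 on day 4, 3 to 5 on day 7 and 2 to 5 for day 7 against day 4. With only the 8 arrays compared, the count was 1 on day 4 (Snai2, 0.38) and 3 on day 7. The replicate block (same-numbered samples share only a number in the LMB2 comparisons) gave 9 for podocyte against glomerular RNA, again with Twist1, and 0 on day 4. It gave 3 on day 7, where Cdh2 and Cdh3 were no longer called. For day 7 against day 4 it gave 3, where Fn1 lost its call and Cdh3 gained one. The 5 for day 7 against day 4 came without day 7 replicate 3, and each 3 for day 7 without day 7 or normal replicate 2. Without the 3 arrays high in proximal tubule markers, the count for day 7 against day 4 was 1. That setting, leaving out replicate 3 of both normal groups, the row on the slide as a block and centring on the kept probes were chosen after seeing the data.

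Over all genes tested, the day 4 calls were 4695 in the fit used, 2315 with the replicate block and 7058 after centring arrays on their medians, and the calls for day 7 against day 4 were 4951 and 3063 with the block. This centring moved the median of all genes to -0.39 on day 4, -0.48 on day 7 and 0.74 for podocyte against glomerular RNA, and split the calls as 1180 higher and 5878 lower on day 4, against 1799 and 2896, and as 1928 and 7508 on day 7, against 3153 and 5349. With centring on the kept probes alone, no call among the 10 genes changed. Normexp background correction gave smaller day 7 differences, 1.30 for Snai1, 0.86 for Cdh11 and 1.23 for Fn1, and smaller podocyte against glomerular ones, -1.73 for Twist1, -0.71 for Cdh3, -1.89 for Fn1 and 1.23 for Cdh11; the cause was not tested.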
